A study of Homo sapiens with 8 samples.

Results

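RNA levels were compared between NB4 cells that carried the ΔIDR mutant of PML/RARα and NB4 cells that carried full-length PML/RARα. These 2 groups held 4 of the 8 RNA sequencing libraries of the study and were taken by their labels, with no measured value used. NB4 is an established human cell line of acute promyelocytic leukemia. In all 4 groups the endogenous PML/RARα was knocked down by lentivirus and replaced for 72 h by an empty vector, by HA-tagged full-length PML/RARα, by the HA-tagged point mutant F158E or by HA-tagged ΔIDR, with 2 libraries in each group. The labels describe F158E and ΔIDR as mutants that cannot phase separate. IDR is the usual short form of intrinsically disordered region and Δ the usual sign of a deletion, but the residues removed, the promoter of the lentivirus and the knock-down reagent are not given in the sources used here. Every group is the same cell line with the knock-down, so no group has NB4 with its own fusion untouched. Within a group the labels tell libraries apart by a replicate number alone. The p-values below thus reflect how far such libraries lie apart, and that distance may be a technical one.

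PML/RARα joins PML, the scaffold protein of nuclear bodies, to the retinoic acid receptor RARα. The fusion binds retinoic acid response elements together with RXR, recruits corepressors and histone deacetylases, and is known for holding myeloid cells at the promyelocyte stage. Neutrophil maturation beyond that stage is followed by granule proteins that are made in order, by the NADPH oxidase that produces superoxide, and by receptors for chemoattractants, with the C/EBP factors and PU.1 among its regulators. Eosinophils share the granulocyte route and mark themselves by their own granule proteins and by GATA factors.

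The 8 libraries held 16779364 to 21965389 counts assigned to genes. The ΔIDR libraries held 16779364 and 21965389, and the full-length libraries 17372297 and 16979684. Mitochondrial genes took 4.20% and 4.22% of the counts with ΔIDR against 3.33% in both full-length libraries, 3.70% in both F158E libraries and 3.71% and 3.72% with empty vector. Reads outside annotated genes took 4.27% and 4.37% with ΔIDR and 3.65% and 3.66% with full-length. The part of these shares in the results was not tested. A fit with library sizes that leave out the mitochondrial genes called 6971 genes, as many as the main fit. Its scaling factors were computed anew from the remaining genes, so this fit could hardly differ and tells little about these shares. Levels are given in CPM, the usual count unit scaled to library size, with TMM factors, and each level is that of 1 library. Changes are log2 fold changes of ΔIDR minus full-length ± SE from an edgeR quasi-likelihood fit over all 8 libraries, and a gene rose or fell only where its Benjamini-Hochberg adjusted p was under 0.05. The cells held the promyelocyte products MPO, at 4107 and 4169.8 CPM with ΔIDR and 3461 and 3437 CPM with full-length, and SRGN, which carries the charged granule matrix, in every library. Counts at or near 0 for genes that nearly all cells use, such as XBP1 and CYP51A1, show that a count of 0 in these files does not mean that a gene was silent.

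The counts of both fusion partners were much higher with ΔIDR than with full-length. PML (chr15:73994673-74047812, GRCh38) stood at 445 and 440.0 CPM with ΔIDR and 127 and 121 CPM with full-length, beside 65.8 and 66.1 CPM with F158E and 51.0 and 52.8 CPM with empty vector. Its log2 difference was 1.83 ± 0.044 (edgeR adjusted p = 4.7e-54). RARA (chr17:40309192-40357643) stood at 1351 and 1364 CPM with ΔIDR and 78.3 and 75.6 CPM with full-length, beside 32.4 and 32.2 CPM with F158E and 24.1 and 22.1 CPM with empty vector. Its log2 difference was 4.14 ± 0.038 (edgeR adjusted p = 4.6e-87). Both ΔIDR libraries lay above all 6 other libraries for both genes, with full-length next and the empty vector lowest. Above the level of the empty vector, the counts of PML were 5.40 times and those of RARA 24.8 times those of full-length, whereas F158E reached 0.194 and 0.171 times. Counts per gene do not separate the construct from the endogenous PML and RARA genes, so they check neither the knock-down nor the deletion. The level of the construct and its deletion differ together between the ΔIDR and full-length groups, and in each comparison below they cannot be told apart. Leaving PML and RARA out of the library sizes left all 6971 calls in place with their direction. The scaling factors were computed anew from the remaining genes, so this fit could hardly differ. It does not bear on the level of the construct.

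Of 13982 genes tested, 6971 (49.9%) differed between ΔIDR and full-length. ΔIDR was higher for 3485 (24.9%) and lower for 3486 (24.9%), and the median log2 fold change over all tested genes was 0.0046. Many of these changes were small: 936 genes rose and 661 fell by at least 2-fold, 346 and 191 by at least 4-fold, and 143 and 71 by at least 8-fold. A test against a fold of 1.5 passed 1611 genes (11.5%), of which 917 were higher with ΔIDR and 694 lower. Among 1434 long non-coding genes tested, 202 rose (14.1%) and 104 fell (7.25%). The libraries of the 2 groups did not overlap for 3471 of the genes called higher and 3470 of those called lower. Non-overlap, where given below, thus adds little to a call. With so many genes called, a gene list is described below beside the shares of 24.9% in each direction.

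The same fit set ΔIDR against the 2 remaining groups, and these comparisons share the ΔIDR libraries with the main one. Against empty vector 1439 genes (10.3%) differed, 708 higher (5.06%) and 731 lower (5.23%) with ΔIDR. Against F158E 2592 genes (18.5%) differed, 1282 higher (9.17%) and 1310 lower (9.37%). Counts of list members against these 2 groups, given below, are to be read beside these shares. For 430 genes (3.08%) the level with ΔIDR was above each of the 3 other groups, and for 305 genes (2.18%) it was below each of them. A margin of at least 2-fold from all 3 groups was held by 61 of the former and 36 of the latter. Without ΔIDR replicate 2 the count of genes below all 3 groups dropped to 191.

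Granule and inflammatory genes led the rises among protein-coding genes whose mean level reached 3 on the log2 CPM scale. Beside RARA, the list began with DEFA4, an antimicrobial peptide of primary granules, at 118 and 116 CPM with ΔIDR and 1.19 and 1.63 CPM with full-length (log2 6.37 ± 0.16, edgeR adjusted p = 1.2e-53). S100A9, a subunit of the calcium-binding calprotectin (chr1:153357854-153361027), stood at 48.9 and 52.0 CPM with ΔIDR and 1.65 and 1.63 CPM with full-length (log2 4.94 ± 0.19). NCF1, the p47phox organizer of the NADPH oxidase (chr7:74773962-74789315), stood at 184 and 178 CPM with ΔIDR and 6.88 and 5.71 CPM with full-length (log2 4.84 ± 0.10). Near-identical copies of NCF1 exist in the genome, so how its reads were counted is uncertain. The groups overlapped in none of the 3. CXCL10, an interferon-induced chemokine, rose by log2 4.89 ± 0.28, the cytokine IL1B by 4.64 ± 0.15 and the antiviral OASL by 4.42 ± 0.21. CXCL8, the neutrophil attractant, stood at 618 and 599 CPM with ΔIDR and 32.7 and 35 CPM with full-length (log2 4.17 ± 0.043). CCL2, which attracts monocytes, rose by log2 3.94 ± 0.11, and ALOX5AP, which hands arachidonic acid to 5-lipoxygenase, by 3.79 ± 0.13. The rule for these largest rises required groups that do not overlap, which 3471 of the 3485 genes called higher met.

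MMP2, EMP1 and FGFR1 led the falls under the same rule. MMP2, a gelatinase (chr16:55389700-55506691), stood at 3.86 and 1.97 CPM with ΔIDR and 40.5 and 36.3 CPM with full-length (log2 -3.76 ± 0.19, edgeR adjusted p = 2.6e-31). EMP1, a membrane protein, stood at 2.77 and 2.79 CPM with ΔIDR and 25.6 and 28.7 CPM with full-length (log2 -3.29 ± 0.21). In each the ΔIDR libraries lay far below the full-length ones. FGFR1, a fibroblast growth factor receptor, stood at 2.65 and 2.47 CPM with ΔIDR and 19.9 and 21.5 CPM with full-length (log2 -3.02 ± 0.21). The mitochondrial carrier SLC25A23 stood at 16.0 and 12.4 CPM with ΔIDR and 97.5 and 88.6 CPM with full-length (log2 -2.73 ± 0.11). SAPCD2, a regulator of spindle orientation, stood at 25.8 and 24.9 CPM with ΔIDR and 156 and 149 CPM with full-length (log2 -2.59 ± 0.081). The remaining 5 of the 10 largest falls were MTUS1, DBNDD1, SH3PXD2B, MPZL1 and DAB2IP, the last a Ras GTPase-activating protein, with log2 fold changes of -2.82, -2.69, -2.66, -2.66 and -2.55. For these falls, too, the rule required groups that do not overlap, which 3470 of the 3486 genes called lower met. SAPCD2 with ΔIDR lay near the other groups, which held 25.8 and 30.2 CPM with F158E and 27.3 and 27.0 CPM with empty vector, whereas MMP2 with ΔIDR lay below them as well, at 10.3 and 7.27 CPM with F158E and 8.47 and 8.34 CPM with empty vector.

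Long non-coding genes followed both directions. LINC00963 stood at 9.95 and 6.18 CPM with ΔIDR and 0.682 and 1.28 CPM with full-length (log2 3.02 ± 0.34). FBXL19-AS1 was at 18.8 and 17.7 CPM with ΔIDR and 2.67 and 2.10 CPM with full-length (log2 2.93 ± 0.19). MIR223HG, the host gene of the myeloid microRNA miR-223, was at 77.4 and 77.2 CPM with ΔIDR and 13.2 and 12.9 CPM with full-length (log2 2.56 ± 0.10). The largest falls were in SLC12A2-DT (log2 -1.57 ± 0.30), PCCA-DT (-1.34 ± 0.27), and SATB1-AS1 (-1.27 ± 0.22). The library kit does not mark strand, so reads of the antisense genes FBXL19-AS1 and SATB1-AS1 cannot be told from reads of the genes they overlap.

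Primary granule proteins are the enzymes and peptides packed at the promyelocyte stage. Of 18 list members 15 were tested, 12 rose, 0 fell and 3 did not pass, with a median log2 fold change of 0.99. ELANE, which encodes neutrophil elastase, DEFA1 and DEFA1B were too low to test, so these counts do not cover them. DEFA4 held 3.20 and 3.43 CPM with F158E and 4.26 and 3.33 CPM with empty vector, so the ΔIDR libraries stood apart from all other libraries. BPI, which binds bacterial endotoxin, stood at 7.06 and 6.68 CPM with ΔIDR and 0 and 0.233 CPM with full-length, beside 0.365 and 0.685 CPM with F158E and 0.971 and 0.897 CPM with empty vector. In BPI, too, no other library came near the ΔIDR libraries. PRTN3, a serine protease, stood at 433 and 440.4 CPM with ΔIDR and 217 and 222 CPM with full-length (log2 0.99 ± 0.036), AZU1, an inactive protease homologue that kills bacteria, rose by log2 1.67 ± 0.079, and SRGN stood at 6443 and 6362 CPM with ΔIDR and 2191 and 2238 CPM with full-length (log2 1.53 ± 0.015). The protease inhibitor SERPINB1 rose by log2 1.99 ± 0.15. DEFA3 had no count in either full-length library and 10.1 and 10.4 CPM with ΔIDR, which is at least 119-fold higher against a floor of 3 counts over the full-length group. DEFA1, its near-identical neighbour, is at 0 in this table, so these reads are uncertain between the copies. MPO, myeloperoxidase, rose by only log2 0.26 ± 0.015. CTSG (0.10), LYZ (-0.09) and CD63 (-0.05) did not pass. Against empty vector 10 members rose and 2 fell, and against F158E 10 rose and 3 fell, beside 5.06% and 9.17% of all genes higher with ΔIDR. The level with ΔIDR was above all 3 other groups for 9 of the 15, beside 3.08% of all tested genes.

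Specific and gelatinase granules form later, and their genes were mostly too low to test. Only 7 of 17 members passed the filter, and 3 of these rose. LTF, LCN2, CRISP3, OLFM4, CEACAM8 and MMP8, which define these granules, had at most 1 count in each of the 8 libraries and were not tested. MMP9, gelatinase B, stood at 169 and 169.6 CPM with ΔIDR and 62.6 and 65.4 CPM with full-length (log2 1.4 ± 0.048), but below the empty vector, with 180.0 and 172 CPM with F158E and 355 and 346 CPM with empty vector. FCN1, a ficolin, rose by log2 0.71 ± 0.093 and QSOX1, a sulfhydryl oxidase, by 0.30 ± 0.08.

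The S100 list split by member. Of 9 tested genes 4 rose and 3 fell. The rises included both calprotectin genes. S100A8 had 3 counts in the full-length libraries together and stood at 12.1 and 10.6 CPM with ΔIDR, a ratio of 130.2 (exact 95% counting interval 44.2 to 634). S100A12 stood at 1.21 and 0.549 CPM with ΔIDR and had 1 count with full-length, and its adjusted p of 0.0034 in edgeR was lost without ΔIDR replicate 1 or without full-length replicate 1. S100P rose from 6.71 and 6.59 to 13.1 and 12.9 CPM (log2 0.97 ± 0.20). S100A10, the annexin A2 partner, fell (log2 -0.75 ± 0.11), and so did S100A4 (-0.31 ± 0.079) and S100A11 (-0.22 ± 0.063).

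All but 1 of the 8 NADPH oxidase genes rose, with a median of 1.13. The membrane subunits CYBB and CYBA stood at 637 and 620.0 CPM and 150.3 and 160.1 CPM with ΔIDR, from 279 and 282 CPM and 71.0 and 74.9 CPM with full-length (log2 1.16 ± 0.032 and 1.09 ± 0.057). The cytosolic NCF4, p40phox, rose by log2 0.39 ± 0.10. RAC2, the small GTPase of the complex, stood at 169.8 and 169 CPM with ΔIDR and 66.5 and 67.2 CPM with full-length (log2 1.34 ± 0.055), and RAC1 rose by 0.15 ± 0.03. CYBC1, a chaperone of the membrane subunits, did not pass (-0.07). Against empty vector 6 of 8 rose and against F158E 6, with none lower in either. The shares of all tested genes higher with ΔIDR were 5.06% and 9.17%. The direct differences of NCF1 were log2 4.84 ± 0.10 from full-length, 2.93 ± 0.076 from F158E and 1.69 ± 0.07 from empty vector.

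**Figure D1:**
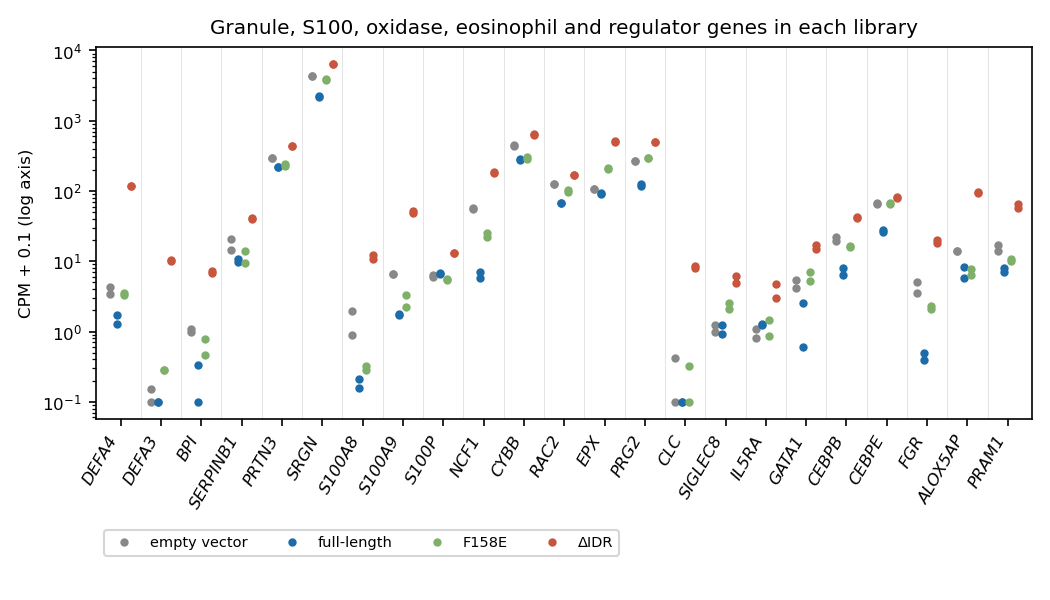
Level of 23 granule, S100, oxidase, eosinophil and regulator genes in each library, as CPM + 0.1 on a log axis. Each point is 1 library and colours are the 4 groups. Red ΔIDR points lie above the points of all other groups in each gene shown. The genes were chosen after their values were seen, most of them for this pattern.

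Eosinophil genes were among the clearest rises with ΔIDR. Of 13 tested members (17 in the list) 11 rose and none fell, with a median of 1.73. EPX, eosinophil peroxidase, stood at 509.6 and 502 CPM with ΔIDR and 94.2 and 89.6 CPM with full-length (log2 2.46 ± 0.042, edgeR adjusted p = 9.7e-66), beside 209 and 211 CPM with F158E and 108 and 106 CPM with empty vector. PRG2, the major basic protein of eosinophil granules, stood at 503 and 505 CPM with ΔIDR and 116 and 127 CPM with full-length (log2 2.05 ± 0.038). For both granule proteins the ΔIDR libraries lay above all 6 other libraries. CLC, the Charcot-Leyden crystal protein, had no count with full-length and 8.02 and 8.42 CPM with ΔIDR, at least 95.5-fold higher against a floor of 3 counts over the group. HPGDS, a prostaglandin D synthase, likewise had no count with full-length and 0.905 and 1.79 CPM with ΔIDR, at least 16.3-fold higher. SIGLEC8, an eosinophil lectin, stood at 6.09 and 4.76 CPM with ΔIDR and 1.14 and 0.816 CPM with full-length, and IL5RA, the interleukin 5 receptor, at 4.58 and 2.93 CPM with ΔIDR and 1.14 and 1.17 CPM with full-length. The histamine-forming HDC rose by log2 0.87 ± 0.033, but its level with ΔIDR was below that with F158E, at 562 and 536 CPM with F158E and 427 and 433 CPM with empty vector. CPA3 and MS4A2, which mark mast cells and basophils, did not pass (0.87 and 1.02). Counting the 17 members together, the summed level was 1747 to 1764 CPM with ΔIDR, 564 to 567 with full-length, 1339 to 1365 with F158E and 1081 to 1084 with empty vector. Against empty vector 8 members rose and 1 fell, and against F158E 8 rose and 1 fell. The shares of all tested genes higher with ΔIDR were 5.06% and 9.17%. In bulk RNA, a larger share of cells of a type and more RNA per cell cannot be told apart.

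Monocyte markers rose less uniformly. Of 12 tested members 7 rose and 1 fell. The Fc receptor FCGR1A rose by log2 1.14 ± 0.10, and CSF1R, the receptor for macrophage colony-stimulating factor, rose by 0.86 ± 0.20 while remaining below the empty vector, at 10.1 and 8.82 CPM with F158E and 12.3 and 13.2 CPM with empty vector. MARCO, a scavenger receptor, had 1 count with full-length and 1.03 and 1.42 CPM with ΔIDR. IRF8 fell (log2 -1.51 ± 0.54), a call lost without ΔIDR replicate 1 or full-length replicate 1. CD14 had 1 count with full-length and 0.121 and 0.778 CPM with ΔIDR, and CD68 and VCAN were too low to test. The summed level of the 18 markers was 178 to 181 CPM with ΔIDR, 108 to 110.4 with full-length, 136 to 146 with F158E and 171 to 173 with empty vector. Lymphoid, erythroid and epithelial markers were low: 5 of 10, 1 of 10 and 3 of 8 were tested. NKG7, also a granule protein of cytotoxic cells, rose by log2 0.85 ± 0.11 and ITGA2B, a platelet integrin, by 1.4 ± 0.20, while CD79B fell (log2 -1.90 ± 0.32). All 3 epithelial and fibroblast markers tested fell, namely KRT8, EPCAM and COL3A1, and without full-length replicate 2 none of the 3 was called. The summed levels of these 3 lists were 49.3 to 49.6, 14.4 to 14.8 and 8.65 to 9.89 CPM with ΔIDR and 33.6 to 42.7, 4.15 to 6.71 and 14.0 to 19.7 CPM with full-length. HBA1 and HBA2, the hemoglobin alpha genes, were at 0 in every library. They are near-identical copies, so how their reads were counted is uncertain and this 0 says little. The part of other cell types in the results was not tested.

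Several transcription factors of the granulocyte route rose against full-length. Of 7 C/EBP factors 5 rose and 1 fell. Against empty vector 2 of the 7 were higher and 0 lower, with a median of -0.002. CEBPB stood at 42.5 and 41.4 CPM with ΔIDR and 7.96 and 6.30 CPM with full-length (log2 2.55 ± 0.14), beside 16.3 and 15.8 CPM with F158E and 19.1 and 22.1 CPM with empty vector. CEBPE, which late granule genes need, stood at 80.8 and 80.4 CPM with ΔIDR and 25.8 and 27.9 CPM with full-length (log2 1.59 ± 0.081), beside 66.5 and 64.7 CPM with F158E and 66.7 and 64.7 CPM with empty vector. CEBPA rose by log2 0.46 ± 0.066, and CEBPZ fell (log2 -0.40 ± 0.049). Of 23 myeloid and progenitor factors 11 rose and 4 fell. Against empty vector 4 of the 23 were higher and 5 lower, with a median of -0.02. Of all tested genes 5.06% were higher and 5.23% lower than with empty vector. GATA1 stood at 17.2 and 14.8 CPM with ΔIDR and 0.512 and 2.45 CPM with full-length (log2 3.44 ± 0.28). GATA2 was at 265 and 258 CPM with ΔIDR and 89.1 and 83.1 CPM with full-length (log2 1.60 ± 0.045) and GFI1B rose by log2 3.49 ± 0.41. SPI1, which encodes PU.1, stood at 158.4 and 164 CPM with ΔIDR and 102 and 101 CPM with full-length (log2 0.67 ± 0.052). GATA factors thus rose beside the eosinophil genes. RUNX3 went the other way, at 21.7 and 19.7 CPM with ΔIDR and 40.5 and 40.5 CPM with full-length, below all other groups, which held 43.6 and 41.8 CPM with F158E and 37.2 and 42.2 CPM with empty vector. KLF6 fell (log2 -1.5 ± 0.13), and so did MEF2C (-0.83 ± 0.19).

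Kinases of myeloid receptors and genes of lipid mediators went both ways. Of 11 myeloid tyrosine kinases 6 rose and 4 fell (2 fell without full-length replicate 1). FGR, a Src-family kinase of mature granulocytes, stood at 20.1 and 18.0 CPM with ΔIDR and 0.398 and 0.292 CPM with full-length (log2 5.76 ± 0.33), beside 2.19 and 1.96 CPM with F158E and 3.45 and 4.96 CPM with empty vector. SYK, which signals from Fc receptors and integrins, stood at 356 and 349.6 CPM with ΔIDR and 198 and 197 CPM with full-length (log2 0.84 ± 0.037) and CSK, which restrains Src kinases, rose by log2 0.76 ± 0.043. LYN fell (log2 -0.21 ± 0.057), and so did FER (-0.42 ± 0.081). Among 7 tested eicosanoid genes 5 rose and 2 fell. ALOX5AP stood at 97.8 and 94.5 CPM with ΔIDR and 8.30 and 5.60 CPM with full-length, beside 6.30 and 7.68 CPM with F158E and 13.9 and 13.9 CPM with empty vector. PTGS1, cyclooxygenase 1, rose by log2 0.83 ± 0.10, LTA4H, which forms leukotriene B4, fell (log2 -0.82 ± 0.071) to below all other groups, and PLA2G4A, which releases arachidonic acid, fell (log2 -1.35 ± 0.19).

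Among protein-coding genes whose mean level reached 3 on the log2 CPM scale, ranked by their smallest margin from the 3 other groups, the highest with ΔIDR were DEFA4, RARA, S100A9, ALOX5AP, PRAM1, PML, NCF1 and CD37. PRAM1, an adaptor known as a gene that PML/RARα represses, stood at 58.1 and 65.5 CPM with ΔIDR and 7.90 and 6.94 CPM with full-length, beside 10.8 and 10.0 CPM with F158E and 16.9 and 13.7 CPM with empty vector. CD37, a tetraspanin of leukocytes, stood at 20.9 and 15.9 CPM with ΔIDR and 7.56 and 7.35 CPM with full-length, beside 7.12 and 5.62 CPM with F158E and 7.39 and 6.23 CPM with empty vector. The genes lowest with ΔIDR were CYTL1, MMP2, GAB2, CHAT, SH3PXD2B, GBGT1, TP53I11 and ATP1B1. CYTL1, a cytokine-like protein of CD34-positive cells, stood at 2.11 and 3.48 CPM with ΔIDR and 10.9 and 11.8 CPM with full-length, beside 17.6 and 17.3 CPM with F158E and 21.4 and 20.1 CPM with empty vector. GAB2, a docking adaptor of cytokine receptors, stood at 13 and 10.6 CPM with ΔIDR and 40.3 and 36.8 CPM with full-length, beside 38.0 and 35.3 CPM with F158E and 34.0 and 29.1 CPM with empty vector. TP53I11 stood at 31.9 and 31.5 CPM with ΔIDR and 183 and 173 CPM with full-length, beside 72.2 and 66.7 CPM with F158E and 90.4 and 83.5 CPM with empty vector. For CYTL1 the empty vector lay highest and full-length between it and ΔIDR. For GAB2 the 3 other groups lay close together and ΔIDR alone was low.

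Retinoid receptors and enzymes were in part higher. Of 13 tested genes 8 rose and none fell, but these include PML and RARA, whose counts cannot be told from the construct. Without them 6 of 11 rose, and against empty vector 1 was higher (DHRS9) and 1 lower (RXRA). RXRA, the partner of RARα on DNA, stood at 136 and 138 CPM with ΔIDR and 112 and 113 CPM with full-length (log2 0.28 ± 0.049), below F158E and empty vector, which held 184 and 174 CPM with F158E and 186 and 178 CPM with empty vector. DHRS9, a retinol dehydrogenase, stood at 67.4 and 65.8 CPM with ΔIDR and 42.1 and 38.2 CPM with full-length (log2 0.73 ± 0.085), above all other groups. RXRA thus lay between full-length and the remaining groups, and DHRS9 outside them. CYP26B1, which degrades retinoic acid, had 1 count with full-length and 0.965 and 1.28 CPM with ΔIDR, a ratio of 39.8 (exact 95% counting interval 6.78 to 1606). RARG had 2 counts with full-length and 0.362 and 0.961 CPM with ΔIDR, and its call was lost without ΔIDR replicate 2 or full-length replicate 1. CYP26A1 and RARB were too low to test. Of 13 tested genes known to respond to retinoic acid in promyelocytic cells 8 rose and 2 fell, with a median of 1.59. ASB2, a ubiquitin ligase subunit, stood at 15.9 and 19.4 CPM with ΔIDR and 2.50 and 1.87 CPM with full-length (log2 3.01 ± 0.22), beside 7.67 and 5.35 CPM with F158E and 9.65 and 10.0 CPM with empty vector. CD38 stood at 156 and 151 CPM with ΔIDR and 37.6 and 33.7 CPM with full-length (log2 2.10 ± 0.062). ICAM1, an adhesion receptor, was at 228 and 224 CPM with ΔIDR and 25.4 and 23.9 CPM with full-length (log2 3.19 ± 0.06). ICAM1 did not differ detectably from empty vector, by log2 0.05 ± 0.047, whereas ASB2 was above it by 0.85 ± 0.18. CSF3R, the receptor for granulocyte colony-stimulating factor, fell (log2 -0.76 ± 0.14), and so did PLAUR, the urokinase receptor (-0.47 ± 0.13). The letters AGGTCA repeated after any 5 bases, on either strand, were in none of the 10 RefSeq promoters of these responsive genes. Of all 27305 promoters 1 held them (0.00366%). A search for these exact letters could thus hardly find any in 10 promoters and decides nothing about this list.

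Receptors for chemoattractants and cytokines largely rose against full-length. Of 21 tested genes 16 rose and 4 fell, with a median of 0.84. Against empty vector 8 of the 21 were higher and 2 lower, with a median of 0.17. The shares of all tested genes were 5.06% and 5.23%. C5AR1, the complement C5a receptor, stood at 26.2 and 31.4 CPM with ΔIDR and 13.2 and 13.5 CPM with full-length (log2 1.11 ± 0.14). CXCR2, a receptor for CXCL8, was at 12.4 and 11.5 CPM with ΔIDR and 4.43 and 3.44 CPM with full-length (log2 1.60 ± 0.22). CXCR4 was at 90.9 and 95.9 CPM with ΔIDR and 26.6 and 26.3 CPM with full-length (log2 1.82 ± 0.077). CSF2RB, the shared chain of the receptors for GM-CSF, interleukin 3 and interleukin 5, stood at 42.7 and 47.1 CPM with ΔIDR and 14.0 and 12.2 CPM with full-length (log2 1.77 ± 0.12). These 4 receptors were higher in both ΔIDR libraries. CCR1 rose by log2 1.64 ± 0.13. FPR2, a formyl peptide receptor, stood at 0.603 and 2.43 CPM with ΔIDR and 0.114 and 0.233 CPM with full-length, and its call was lost without ΔIDR replicate 2 or full-length replicate 1. FLT3, a progenitor kinase receptor, fell (log2 -1.74 ± 0.48), and so did IL6R (-0.52 ± 0.095). Of 16 integrins and adhesion molecules 11 rose and 1 fell, whereas against empty vector 5 were higher and 2 lower, with a median of 0.14. ITGAX, CD11c, stood at 39.4 and 43.4 CPM with ΔIDR and 16.4 and 21.7 CPM with full-length (log2 1.13 ± 0.12), ITGAL, CD11a, rose by log2 0.91 ± 0.19 and PECAM1 by 1.13 ± 0.08. ITGAM, CD11b, a usual marker of granulocyte maturation, did not pass, at 23.1 and 27.6 CPM with ΔIDR and 30.2 and 27.2 CPM with full-length (log2 -0.18 ± 0.12).

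Chemokines and cytokines rose broadly. Of 24 tested members 19 rose and 2 fell, with a median of 1.47. CXCL8 held 233 and 226 CPM with F158E and 489.7 and 486 CPM with empty vector beside its ΔIDR level above, IL1B stood at 60.2 and 61.1 CPM with ΔIDR and 1.82 and 3.03 CPM with full-length, and CCL2 at 89.7 and 89.1 CPM with ΔIDR and 6.48 and 5.13 CPM with full-length. CCL4 had no count in the full-length libraries and 4.16 and 5.31 CPM with ΔIDR, at least 55.7-fold higher against a floor of 3 counts over the group. TNFSF13B, the B cell factor BAFF, stood at 43.5 and 46.8 CPM with ΔIDR and 23.9 and 25.2 CPM with full-length, above 12.8 and 15.0 CPM with F158E and 20.6 and 22.4 CPM with empty vector. HGF, hepatocyte growth factor, stood at 10.7 and 12.1 CPM with ΔIDR and 5.06 and 5.13 CPM with full-length but at 34.8 and 35.4 CPM with F158E and 19.9 and 16.6 CPM with empty vector, so ΔIDR was below F158E (log2 -1.61 ± 0.14, edgeR adjusted p = 1.9e-17). IL1RN, the interleukin 1 receptor antagonist, fell (log2 -1.93 ± 0.39), and so did IL16 (-0.87 ± 0.13). Against empty vector 8 members rose and 1 fell, beside 5.06% and 5.23% of all tested genes.

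Of 24 NF-kB subunits and regulators 17 rose and 2 fell, with a median of 0.75. The inhibitor TNFAIP3, A20, stood at 95.0 and 106 CPM with ΔIDR and 12.8 and 14.2 CPM with full-length (log2 2.90 ± 0.081). NFKBIA, which holds NF-kB in the cytoplasm, was at 123 and 125 CPM with ΔIDR and 32.0 and 35.3 CPM with full-length (log2 1.88 ± 0.068). NFKB2 was at 122 and 107 CPM with ΔIDR and 31.5 and 29 CPM with full-length (log2 1.91 ± 0.069). In each of these the groups were far apart. BIRC3 rose by log2 3.71 ± 0.41 and TRAF1 by 2.59 ± 0.41. RELA fell (log2 -0.23 ± 0.073), and so did TNIP1 (-0.34 ± 0.079). Unlike the granule genes, none of these was called above the empty vector: 0 members were higher and 4 lower than with empty vector, and 4 were higher and 0 lower than with F158E. Of all tested genes 5.06% were higher and 5.23% lower than with empty vector, and 9.17% and 9.37% than with F158E. The NF-kB letters GGNNNTTCC stood within 250 bases upstream of the start, on either strand, in 9 of 21 RefSeq promoters of this list (42.9%), in 6 of 18 of the chemokine list (33.3%) and in 17.1% of all 27305 promoters. Of these 9 promoters, 7 belong to genes that rose and none to a gene that fell, and of the 12 without the letters 8 belong to genes that rose and 2 to genes that fell. Stretches of the promoters of NFKBIA and NFKBIZ, both higher with ΔIDR, are shown because they carry these letters ahead of the start, with the letters in capitals, read along the gene, from the RefSeq table of build GRCh38.p14 at chr14:35404792-35404860 (minus strand) and chr3:101827740-101827806 (plus strand).
NFKBIA: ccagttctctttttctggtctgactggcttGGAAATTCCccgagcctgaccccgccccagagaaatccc
NFKBIZ: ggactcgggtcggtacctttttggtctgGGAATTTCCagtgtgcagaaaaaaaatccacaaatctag
These letters lie 73 to 81 and 214 to 222 bases upstream of the starts. NFKBIZ, an atypical inhibitor that also activates some targets, stood at 15.1 and 14.2 CPM with ΔIDR and 4.38 and 4.26 CPM with full-length (log2 1.76 ± 0.19). Sensors upstream of NF-kB were mixed, with 5 of 15 higher and 6 lower (3 lower without full-length replicate 1). IRAK2, a kinase of Toll-like receptor signalling, stood at 11.3 and 9.89 CPM with ΔIDR and 0.967 and 1.05 CPM with full-length (log2 3.38 ± 0.25). CASP1, which activates IL1B, was at 12.1 and 10.6 CPM with ΔIDR and 5.12 and 3.62 CPM with full-length (log2 1.37 ± 0.24), above all other groups. NLRP1 fell (log2 -3.56 ± 0.65), and so did NOD1 (-1.04 ± 0.23).

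Interferon-stimulated genes rose: 19 of 30 tested were higher and 2 lower, with a median of 1.8. IFIT2 stood at 63.6 and 56.1 CPM with ΔIDR and 6.42 and 5.83 CPM with full-length (log2 3.28 ± 0.13). IFIT3 was at 73.3 and 71.1 CPM with ΔIDR and 8.70 and 7.99 CPM with full-length (log2 3.11 ± 0.11). Both encode antiviral RNA-binding proteins. ISG15, a ubiquitin-like modifier, stood at 17.3 and 18.8 CPM with ΔIDR and 1.99 and 2.57 CPM with full-length (log2 2.99 ± 0.21). No ΔIDR library overlapped a full-length library in these 3 genes. IRF1 rose by log2 1.59 ± 0.11 and DDX60 by 2.76 ± 0.16, while MX2 fell (log2 -0.32 ± 0.055), and so did GBP2 (-0.64 ± 0.19). The call for GBP2 was lost without ΔIDR replicate 2. Against F158E 20 of 30 were higher and 1 lower, and against empty vector 10 higher and 0 lower. The shares of all tested genes higher with ΔIDR were 9.17% and 5.06%. IFIT2 held 30.4 and 31.3 CPM with F158E and 28.9 and 29.5 CPM with empty vector. With ΔIDR both libraries lay above the 6 others for IFIT2. Of 12 antigen presentation genes tested 3 rose and 1 fell, a share of rises near that of all genes. CD74, the invariant chain of class II molecules, had 3 counts with full-length and 1.45 and 1.28 CPM with ΔIDR, a ratio of 15.7 (exact 95% counting interval 5.07 to 78.4). B2M rose by log2 0.36 ± 0.023 and TAPBP by 0.76 ± 0.10, and NLRC5 fell (log2 -0.42 ± 0.075).

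The letters GAAA repeated after any 2 bases, which interferon-responsive elements contain, were searched for after the values had been seen. On either strand within 250 bases upstream they were in 14 of the 20 interferon-stimulated genes with a RefSeq promoter (70%) and in 3.07% of all promoters. Of the 14, 12 belong to genes that rose, and ISG20 and GBP1 did not pass. Of the 6 without the letters, 3 rose. Such letters are a description of the window, not a site. Stretches of 4 promoters show how they lie, with 1 match of each in capitals, read along the gene, in build GRCh38.p14, at chr10:89327811-89327880 (plus strand), chr10:89414493-89414562 (plus), chr19:17405721-17405790 (minus) and chr4:76023679-76023747 (minus).
IFIT3: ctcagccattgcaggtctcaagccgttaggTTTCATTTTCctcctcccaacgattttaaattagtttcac
IFIT5: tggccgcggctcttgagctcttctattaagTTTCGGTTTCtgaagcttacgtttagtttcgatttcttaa
BST2: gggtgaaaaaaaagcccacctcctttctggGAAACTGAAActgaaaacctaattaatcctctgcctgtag
CXCL10: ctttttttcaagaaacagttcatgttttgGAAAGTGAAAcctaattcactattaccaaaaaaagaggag
In IFIT3 and IFIT5 the match in capitals is on the opposite strand and so reads in reverse complement. A further match, 10 to 19 bases upstream in IFIT5 and 115 to 124 in BST2, lies wholly or partly in lower case within the stretch shown. IFIT5 stood at 6.57 and 6.77 CPM with ΔIDR and 0.398 and 1.11 CPM with full-length (log2 3.14 ± 0.39). BST2, which tethers virions, was at 98.2 and 103 CPM with ΔIDR and 64.5 and 67.2 CPM with full-length (log2 0.61 ± 0.069). CXCL10 was at 19.1 and 19.0 CPM with ΔIDR and 0.569 and 0.7 CPM with full-length. These 3 were higher in both ΔIDR libraries than in both full-length libraries.

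Chaperones of the endoplasmic reticulum, which fold secreted and granule proteins, rose as a group. Of 21 tested members 19 rose and none fell, with a median of 0.91. HSPA5, the Hsp70 of this compartment, stood at 2874 and 2856 CPM with ΔIDR and 966 and 992 CPM with full-length (log2 1.55 ± 0.019, edgeR adjusted p = 1.7e-77). CALR, a lectin chaperone, stood at 7920.3 and 7964 CPM with ΔIDR and 3836 and 3878 CPM with full-length (log2 1.04 ± 0.013). MANF was at 215 and 204 CPM with ΔIDR and 67.8 and 67.4 CPM with full-length (log2 1.63 ± 0.05). All 3 lay higher in both ΔIDR libraries than in both full-length libraries. DNAJB9 rose by log2 1.65 ± 0.14 and ERO1B, a disulfide oxidase, by 1.60 ± 0.21. ERO1A (-0.02) and TXNDC5 (0.14) did not pass. Against empty vector 13 were higher and 1 lower, beside 5.06% and 5.23% of all tested genes. The median was 0.17 against 0.91 for full-length, and HSPA5 differed from empty vector by log2 0.20 ± 0.018. Of 14 genes that remove misfolded proteins 10 rose and 1 fell, led by EDEM1 (log2 1.16 ± 0.06) and HERPUD1 (0.93 ± 0.092), with VCP lower (log2 -0.21 ± 0.023). The stress element, CCAAT and CCACG separated by any 9 bases, was in 6 of 20 promoters of the folding genes (30%), in none of 10 of the degradation genes and in 0.0806% of all promoters. All 6 folding genes with it rose, as did 12 of the 14 without it, and none fell. It is shown in capitals for 3 of the 6 genes with it, read along the gene in build GRCh38.p14, at chr9:125241361-125241439 (minus strand), chr19:12938359-12938432 (plus) and chr1:236282153-236282208 (minus).
HSPA5: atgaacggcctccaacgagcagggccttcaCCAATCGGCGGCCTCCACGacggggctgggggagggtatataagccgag
CALR: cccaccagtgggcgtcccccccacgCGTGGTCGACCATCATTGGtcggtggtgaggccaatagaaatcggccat
ERO1B: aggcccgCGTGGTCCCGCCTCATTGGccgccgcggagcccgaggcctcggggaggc
It lies 48 to 66, 207 to 225 and 225 to 243 bases upstream, and in CALR and ERO1B on the opposite strand. The ATF4 branch of the stress response divided, with 12 of 24 higher and 9 lower. DDIT3, the factor CHOP, stood at 14.5 and 18.7 CPM with ΔIDR and 5.40 and 3.38 CPM with full-length (log2 1.92 ± 0.19), DDIT4, an inhibitor of mTORC1, rose by log2 1.63 ± 0.079, and SLC7A11, the cystine transporter, stood at 221 and 215 CPM with ΔIDR and 55.0 and 52.8 CPM with full-length (log2 2.01 ± 0.049). SLC7A5, the leucine transporter, fell from 1078 and 1025 to 577 and 596 CPM (log2 -0.84 ± 0.026), as did its partner SLC3A2 (-0.51 ± 0.037). The letters TGATGNAA were in 2 of 20 promoters (10%) of this list and in 3.19% of all, namely of ASNS, which did not pass, and AARS1, which fell.

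Enzymes of cholesterol synthesis mostly rose. Of 19 tested enzymes 15 rose and 1 fell, with a median of 0.78. HMGCS1, which makes HMG-CoA, stood at 244 and 238 CPM with ΔIDR and 83.9 and 92.5 CPM with full-length (log2 1.45 ± 0.045). MSMO1 was at 84.7 and 81.7 CPM with ΔIDR and 26.6 and 26.5 CPM with full-length (log2 1.65 ± 0.077). EBP, a sterol isomerase, fell (log2 -0.46 ± 0.071). Against empty vector 1 was higher and 3 lower, beside 5.06% and 5.23% of all tested genes. HMGCS1 held 253 and 255 CPM with F158E and 257 and 254 CPM with empty vector. Of 15 sterol regulators and carriers 9 rose and 2 fell. INSIG1, which retains SREBP, stood at 464 and 469 CPM with ΔIDR and 131 and 136 CPM with full-length (log2 1.8 ± 0.035). SCAP, the SREBP escort, fell from 126 and 117 to 49.3 and 58.1 CPM (log2 -1.17 ± 0.07), and SOAT1, which esterifies cholesterol, fell (log2 -0.70 ± 0.091). Of 12 fatty acid genes 7 rose and 2 fell: FADS2 stood at 772 and 754 CPM with ΔIDR and 294 and 301 CPM with full-length (log2 1.36 ± 0.028), ELOVL6 rose by 0.87 ± 0.082 and FASN did not pass (-0.01). The sterol letters TCACNCCAC were in none of 14 promoters of the enzymes, in 1 of 14 of the regulators (SREBF2, 7.14%) and in 0.875% of all promoters.

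Ribosome assembly genes of the nucleolus mostly fell. Of 31 tested 24 fell and 1 rose, with a median of -0.29. RRP1B stood at 139 and 135 CPM with ΔIDR and 259 and 271 CPM with full-length (log2 -0.95 ± 0.045). NAT10, an RNA acetyltransferase, was at 145 and 153 CPM with ΔIDR and 263 and 269 CPM with full-length (log2 -0.83 ± 0.044). FBL, the rRNA methyltransferase fibrillarin, was at 126 and 127 CPM with ΔIDR and 223 and 217 CPM with full-length (log2 -0.80 ± 0.047). POLR1A, the large subunit of RNA polymerase I, fell (log2 -0.64 ± 0.045). NPM1 (-0.02) did not pass, and DKC1, a pseudouridine synthase, rose by 0.23 ± 0.033. Against F158E 0 were higher and 19 lower, beside 9.17% and 9.37% of all tested genes. Against empty vector 2 were higher and 0 lower, beside 5.06% and 5.23%. The letters CACGTG were in 2 of 26 promoters (7.69%) and in 6.49% of all. Of 11 genes of the MAX and MXD network 2 rose and 7 fell: MLX, a partner of glucose-sensing factors, stood at 30.6 and 33.9 CPM with ΔIDR and 93.9 and 87.2 CPM with full-length (log2 -1.48 ± 0.086), MAX fell (log2 -0.27 ± 0.054), whereas MXD1, an antagonist that rises in maturing myeloid cells, rose by 1.10 ± 0.11.

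Genes of DNA replication mostly fell and genes of mitosis mostly rose, by small amounts. Of 27 replication and S phase genes 20 fell and 3 rose, with a median of -0.22, whereas of 21 mitosis genes 18 rose and none fell, with a median of 0.25. MCM3, a helicase subunit, stood at 286 and 301 CPM with ΔIDR and 531 and 519 CPM with full-length (log2 -0.84 ± 0.033). POLA1, the polymerase of primer synthesis, was at 59.6 and 59.6 CPM with ΔIDR and 103 and 107 CPM with full-length (log2 -0.81 ± 0.068). CCNE1 fell (log2 -0.81 ± 0.13), whereas CCNE2 rose by 0.46 ± 0.10. BIRC5, survivin, rose by log2 0.58 ± 0.049, KIF20A, a kinesin of cytokinesis, by 0.47 ± 0.054 and MKI67, the Ki-67 antigen, by 0.43 ± 0.022. Against empty vector the replication genes had 0 higher and 3 lower, with a median of -0.02. The mitosis genes had 0 higher and 10 lower, beside 5.06% and 5.23% of all tested genes. Most shifts against full-length in these lists were under 2-fold. BTG2, an antiproliferative gene, stood at 32.7 and 34.7 CPM with ΔIDR and 2.90 and 3.73 CPM with full-length (log2 3.35 ± 0.16). The CDK inhibitor CDKN1B was at 69.4 and 73.6 CPM with ΔIDR and 38.3 and 40.1 CPM with full-length (log2 0.87 ± 0.075). RB1 fell (log2 -0.53 ± 0.055), and so did CDK4 (-0.40 ± 0.047), within 14 cell cycle regulators of which 5 rose and 4 fell. These counts stand beside 24.9% of all tested genes in each direction.

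Corepressors and coactivators, through which RARα acts, fell more often than they rose. Of 22 tested 13 fell and 4 rose, with a median of -0.35. CREBBP, an acetyltransferase, stood at 45.7 and 54.7 CPM with ΔIDR and 111 and 105 CPM with full-length (log2 -1.10 ± 0.075). HDAC5 fell (log2 -0.84 ± 0.12), and so did TBL1X, a corepressor subunit (-0.78 ± 0.083), while HDAC4 rose by 0.67 ± 0.094 and TBL1XR1 by 0.53 ± 0.039. NCOR1 (-0.07) and HDAC1 (0.02) did not pass. Of 13 DNA methylation and Polycomb genes 3 rose and 2 fell, no more than the 24.9% of all tested genes in each direction. DNMT3B stood at 28.8 and 29.7 CPM with ΔIDR and 43.2 and 39.2 CPM with full-length, below 56.3 and 55.5 CPM with F158E and 40.6 and 43.7 CPM with empty vector, and TET2 rose by log2 0.49 ± 0.10. Of 22 partners of PML in nuclear bodies and the SUMO pathway 7 were higher and 6 lower, near the 24.9% of all tested genes in each direction. SP100, a body component, rose by log2 0.66 ± 0.09 and RNF4, the ligase that recognizes SUMO chains on PML, by 0.59 ± 0.04, while PIAS4, a SUMO ligase, fell (log2 -1.18 ± 0.17). DAXX (-0.04) did not pass.

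Setting ΔIDR against each group in turn separated the lists by where ΔIDR lay. The 3 comparisons share the ΔIDR libraries, so their values are given side by side only. The median log2 fold change of eosinophil, basophil and mast cell genes was 1.73 against full-length, 1.23 against F158E and 0.92 against empty vector. For primary granule genes it was 0.99, 0.55 and 0.43, and for the NADPH oxidase 1.13, 0.72 and 0.35. Interferon-stimulated genes had medians of 1.8, 0.95 and 0.38. In these lists ΔIDR was above every other group at the median. NF-kB genes had medians of 0.75, 0.08 and -0.06, and cholesterol enzymes of 0.78, 0.08 and -0.02. Coregulators had -0.35, -0.03 and 0.02. In these 3 lists ΔIDR lay nearer to F158E and the empty vector than to full-length at the median. Mitosis genes had 0.25, -0.07 and -0.10, with 10 of 21 lower than with empty vector and 7 lower than with F158E.

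**Figure D2:**
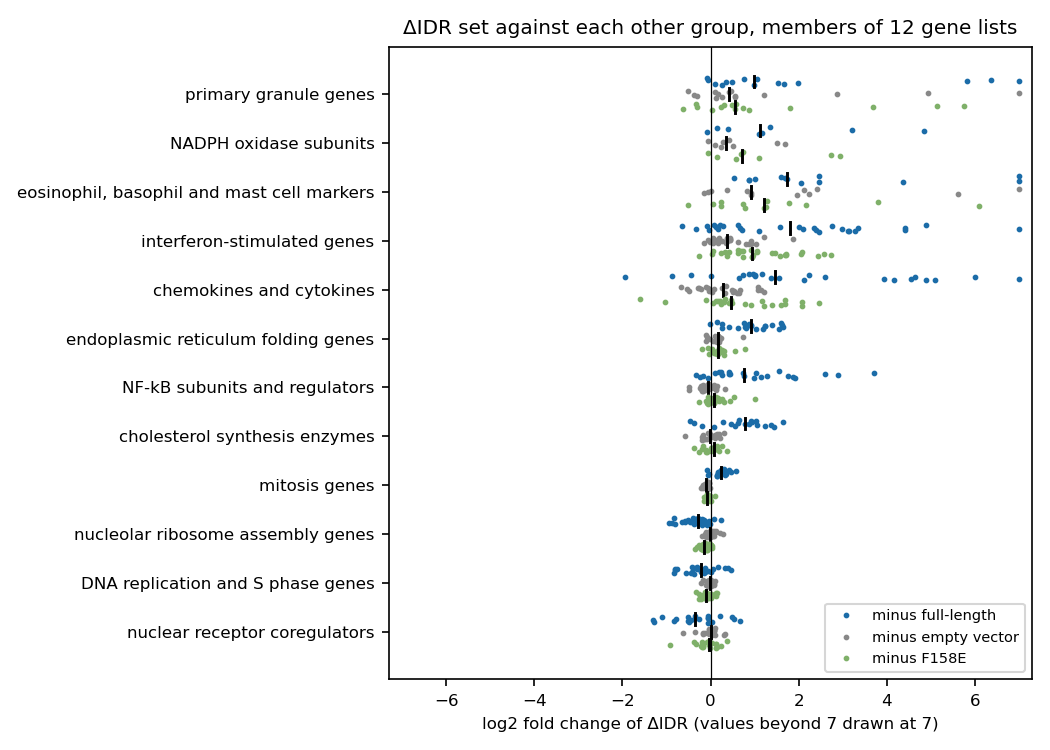
Log2 fold change of ΔIDR minus full-length (blue), empty vector (grey) and F158E (green) for the tested members of 12 gene lists, 1 point per gene, with a black bar at each median. Values beyond 7 are drawn at 7 . The medians of granule, oxidase and eosinophil genes lie to the right of 0 in all 3, whereas those of NF-kB, cholesterol and nucleolar genes lie near 0 against empty vector.

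Of 14 BCL2 family genes tested 9 rose against full-length and none fell, death-promoting members included. Against empty vector 3 of the 14 were higher and 1 lower, with a median of 0.11. The shares of all tested genes were 5.06% and 5.23%. MCL1, which protects granulocytes, stood at 501 and 517 CPM with ΔIDR and 282 and 284 CPM with full-length (log2 0.85 ± 0.032). BCL2A1, an NF-kB target, was at 17.5 and 23.2 CPM with ΔIDR and 3.98 and 3.85 CPM with full-length (log2 2.38 ± 0.20). The death-promoting BCL2L11, BIM, was at 83.2 and 78.7 CPM with ΔIDR and 33.5 and 27.9 CPM with full-length (log2 1.4 ± 0.082). BCL2 did not pass against full-length (-0.19). Of 15 p53 target genes 7 rose and 3 fell (1 fell without ΔIDR replicate 1 or full-length replicate 2). PMAIP1, NOXA, rose by log2 1.41 ± 0.12 and CDKN1A fell (log2 -0.72 ± 0.23), a call lost without ΔIDR replicate 1 or full-length replicate 2. Against empty vector 0 of the p53 target genes were higher and 1 lower, with a median of -0.03. PIM1, a survival kinase, rose by log2 1.41 ± 0.20, within 6 of 11 SOCS, CISH and PIM genes higher and 2 lower. That count of falls was smaller without ΔIDR replicate 2 or either full-length replicate. DUSP1 fell (log2 -1.77 ± 0.36), and so did DUSP7 (-0.60 ± 0.084), within 5 of 12 ERK feedback genes lower (3 without full-length replicate 1) and 1 higher.

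Immediate-early factors were divided, with 10 of 22 higher and 4 lower (2 lower without ΔIDR replicate 1 or ΔIDR replicate 2). JUND stood at 61.2 and 50.8 CPM with ΔIDR and 15.2 and 17.7 CPM with full-length (log2 1.77 ± 0.10), whereas FOS stood at 13.5 and 11.4 CPM with ΔIDR and 30.9 and 25.5 CPM with full-length (log2 -1.19 ± 0.15). FOSB was at 1.63 and 3.34 CPM with ΔIDR and 8.02 and 10.0 CPM with full-length (log2 -1.83 ± 0.31). FOS with ΔIDR was above F158E, by log2 1.30 ± 0.17, and below full-length. Clock genes fell in 8 of 13 tested and rose in 1, and 5 fell in each of the fits without ΔIDR replicate 1, ΔIDR replicate 2 or full-length replicate 1. DBP, an output factor of the clock, stood at 11.5 and 12.8 CPM with ΔIDR and 70.2 and 66.5 CPM with full-length (log2 -2.48 ± 0.12), beside 12.8 and 17.4 CPM with F158E and 11.7 and 10.2 CPM with empty vector. BHLHE40, a repressor in the same circuit, stood at 47.1 and 43.9 CPM with ΔIDR and 9.10 and 6.41 CPM with full-length (log2 2.55 ± 0.14), above all other groups. Heat shock chaperones fell in 8 of 12 and rose in 2: BAG3 fell (log2 -0.75 ± 0.075), and so did HSP90AB1 (-0.23 ± 0.016).

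Coagulation genes, which matter for the bleeding seen in this leukemia, went both ways, with 4 of 11 higher and 3 lower. Of all tested genes 24.9% changed in each direction, so these counts are not far from that share. F3, tissue factor, stood at 19.2 and 17.4 CPM with ΔIDR and 29.9 and 32.0 CPM with full-length (log2 -0.76 ± 0.11), below 36.9 and 36.9 CPM with F158E and 49.6 and 52.8 CPM with empty vector. ANXA2, which assembles plasmin on the cell surface, stood at 38.5 and 36.3 CPM with ΔIDR and 128 and 121 CPM with full-length (log2 -1.74 ± 0.072), below 56.2 and 51.9 CPM with F158E and 62.0 and 60.1 CPM with empty vector. THBS1, thrombospondin 1, stood at 394 and 389 CPM with ΔIDR and 53.5 and 51.9 CPM with full-length (log2 2.89 ± 0.042). PLAU, urokinase, was at 111 and 97.6 CPM with ΔIDR and 29.1 and 29 CPM with full-length (log2 1.84 ± 0.071). Both genes lay below the empty vector (log2 -0.43 ± 0.033 and -0.52 ± 0.059). Of 11 metalloproteases and inhibitors 5 rose and 2 fell. ADAM8 rose by log2 1.51 ± 0.18 and TIMP1 fell (log2 -0.58 ± 0.078). Lysosomal genes rose in 9 of 18 and fell in 5 (3 without ΔIDR replicate 2 and 2 without full-length replicate 2): CTSD, cathepsin D, stood at 116 and 116 CPM with ΔIDR and 67.7 and 64.5 CPM with full-length (log2 0.81 ± 0.069) and CTSZ rose by 0.93 ± 0.078, both above all other groups, while CTSH fell (log2 -0.43 ± 0.064).

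Metabolic genes went both ways. Of 29 glycolysis and hypoxia genes 10 rose and 15 fell. ENO1 stood at 1736 and 1704 CPM with ΔIDR and 2822 and 2859 CPM with full-length (log2 -0.72 ± 0.018) and LDHA fell (log2 -0.39 ± 0.019), whereas HK3, the hexokinase of myeloid cells, stood at 6.09 and 3.57 CPM with ΔIDR and 0.398 and 0.292 CPM with full-length (log2 3.77 ± 0.58), beside 0.183 and 0.274 CPM with F158E and 0.539 and 0.95 CPM with empty vector, and the lactate exporter SLC16A3 rose by 1.37 ± 0.035. Of 13 iron genes 8 rose and 2 fell, with TFRC, the transferrin receptor, higher by log2 0.65 ± 0.023 and FTL, ferritin light chain, by 0.85 ± 0.019, and with the iron-sensing IREB2 (log2 -0.54 ± 0.041) and ACO1 (-0.78 ± 0.11) lower. Among 12 NRF2 targets 4 rose and 3 fell, beside 24.9% of all tested genes in each direction. PGD, a source of the NADPH that the oxidase uses, and TKT, another pentose phosphate enzyme, rose by log2 0.52 ± 0.032 and 0.64 ± 0.028 and lay above all other groups, and PRDX1 fell (log2 -0.39 ± 0.032). Of 13 mitochondrially encoded genes 11 rose and 1 fell. MT-ND6 stood at 253 and 249 CPM with ΔIDR and 110.5 and 106 CPM with full-length (log2 1.21 ± 0.044) and MT-CO2 fell (log2 -0.12 ± 0.016). The library kit does not mark strand, so reads of MT-ND6 cannot be told from reads of the opposite strand. Against empty vector 13 of 13 mitochondrially encoded genes were higher. The mitochondrial shares of 4.20% and 4.22% with ΔIDR, above those of the other groups, moved with these genes, and their part in the result was not tested.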

How the data were processed

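Total RNA was sequenced after removal of ribosomal RNA, with the NEBNext Ultra RNA library kit, per the labels' protocols. This kit does not mark strand. The authors deposited 1 raw count per gene and library, with human builds GRCh38 and hg38 named in the submitters' processing notes. The aligner, the counter and the annotation release are not given in the sources used here. The files list 60483 gene identifiers, plus 5 lines without a gene that stayed out of library sizes and tests. Assigned counts were 87.9% to 88.7% of the total. Of the identifiers 56321 matched the table of gene names and 56753 matched GENCODE release 29, the source of gene coordinates.

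Counts were fitted with edgeR 4.0.16 in R 4.3.3 (limma 3.58.1) by the quasi-likelihood test over all 8 libraries, after filterByExpr, with TMM factors and no replicate block. Adjusted p-values are Benjamini-Hochberg over all 13982 genes tested. The code was tested on simulated counts. Libraries of a group differed by more than counting noise and were kept as separate replicates. The members and the 50 gene lists were chosen with earlier results of these data known. Lists are described by counts and medians, with no set test. Where a gene had no count in a group, the fold is a lower bound against 3 counts over that group, and exact 95% intervals cover counting error only. PCR reads without molecular identifiers are not independent molecules. With such genes at their bound, no list median moved.

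The naming rule took PML with RARA, the 10 called protein-coding genes that rose most and the 10 that fell most (mean of at least 3 log2 CPM, groups not overlapping), the 3 largest among long non-coding genes (at least 2), the 8 highest and lowest protein-coding genes outside all other groups (at least 3), and in each list the 3 called members of largest change in the main direction and 1 in the other. Other members, named to complete a complex or family, were chosen after their values were seen. Promoter windows came from RefSeq (GRCh38.p14), and motifs were searched in the 250 bases before the start on both strands. Alternatives were relative log expression factors, DESeq2 1.42.0, other filters, the 4 libraries alone, other library sizes, a replicate block and leaving out each replicate.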

Additional observations from a re-analysis of the deposited data

How the results depend on the processing

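Of 6971 genes called between ΔIDR and full-length, 6960 kept call and direction with relative log expression factors, 6393 with DESeq2, 6544 with no filter on low counts, 6781 with a filter of 1 CPM in 2 libraries and 6782 in a fit of the 4 libraries alone. With library sizes that leave out PML and RARA, or the mitochondrial genes, all 6971 were kept. The TMM factors of these fits were computed anew, and the median shift of log2 fold changes was only 3.17e-06 and -6.84e-05. With the replicate number as a block, 6929 genes were called, of which 6905 were shared. Deviations of libraries with the same number correlated at -0.0195 to 0.0245 between groups, so no pairing by number was seen. Counting noise of low genes lowers such correlations, so this check cannot decide whether the numbers pair the libraries. Without 1 replicate, in fits that take the lone library to vary like the other groups, 5992 to 6149 genes were called and 5749 to 5915 were shared. The count of genes below all 3 other groups was 191 to 271 in those fits, against 305, and its lowest value came without ΔIDR replicate 2. The cause was not tested. None of the 204 genes named by rule reversed under the 12 alternatives. DESeq2 lost 3 of their calls (HPGDS, KRT8 and NLRC4), and fits without 1 replicate lost 8 to 14. Of 100 list counts, 6 to 9 moved by over 1.5 times without 1 replicate, and all but 3 of these moves were in counts of falls. List medians moved most for the 3 epithelial and fibroblast markers, from -1.95 to between -4.97 and -0.52. Among lists of 7 or more tested genes the largest shifts were 0.602 (coagulation genes, without full-length replicate 2) and 0.646 (retinoic acid induced genes, no filter). With 16779364 to 21965389 counts per library, ratios of genes with 1 to 3 counts in a group have wide counting intervals.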
